A study of Vitis labrusca x Vitis vinifera with 9 samples.

Results

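Glycosyltransferases were represented by 29 of the 30128 grapevine probes of the array. Of these, 28 were taken by annotation. Their Arabidopsis homolog is described as a UDP-glucoronosyl or UDP-glucosyl transferase or as a protein of a glycosyltransferase family. GSVIVT00003476001, which the study names a crocetin glucosyltransferase, was added by name. The members were chosen with earlier results of these data known. GSVIVT00031498001 was left out by the rule. A homolog description was held by 6981 probes, so a glycosyltransferase without one, other than the gene added by name, was not among the members. By their homologs, or by its name for GSVIVT00003476001, 17 members were of the UGT type, the UDP-glycosyltransferases proper. The other 12 had homologs described as of other glycosyltransferase families: 5 of family 14, 2 of the alpha 1,4 family and 1 each of the ALG6/ALG8 family and of families 1, 2, 28 and 47. These family numbers are the wording of the descriptions and were not checked against a classification of enzymes. The label of UDP-glycosyltransferase is therefore kept below for the 17 only.

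UDP-glycosyltransferases move a sugar, most often glucose, from a UDP-sugar onto small molecules such as plant hormones, flavonoids, other phenolics and foreign compounds. The sugar makes the molecule more soluble and often inactive, and many conjugates are stored in the vacuole, from which glucosidases can free them again. Grapevine is known for enzymes of this kind that glucosylate anthocyanins, stilbenes and aroma compounds. The other families act mostly on larger products: family 14 includes enzymes that put glucuronic acid on arabinogalactan proteins of the cell wall in Arabidopsis, and ALG6 and ALG8 enzymes add glucose to the glycan used for N-glycosylation of proteins in the endoplasmic reticulum.

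The buds sat at the 8th node from the base of mature canes of 5-year-old Kyoho vines, a cross of Vitis vinifera and Vitis labrusca, and were taken 24 h after treatment in late August. In P the canes were pruned and the buds received water. In HC the buds received 1% hydrogen cyanamide, which growers apply to make dormant buds break, and in PHC pruning and hydrogen cyanamide were combined. There were 3 arrays per treatment and 9 in all, each with RNA of treated buds in Cy5 beside RNA of control buds in Cy3, the controls being water-treated buds of unpruned canes. For the HC arrays, the labels give pruned canes where the study's methods give unpruned ones, so array titles set the groups. Treated RNA was always in Cy5, with no dye swap, and any dye bias of a member stays in its values. All treatments carry the same control label, and their ratios may share control RNA. Nothing shows whether replicates came from separate vines, so the p-values measure only the spread between these arrays. Whole buds were extracted, in which fewer cells of a type and less RNA per cell cannot be told apart.

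The value used throughout was the log2 ratio of treated to control signal on an array, called the log2 change where it is averaged over the 3 arrays of a treatment. Each log2 change was tested with limma in 1 fit over the 9 arrays, and p-values were adjusted by Benjamini-Hochberg over the 26395 probes tested, those that 1 treatment or more had well above background, in either channel, on its 3 arrays. A probe was called higher or lower where the adjusted p was under 0.05 and the change was at least 2-fold. Of the members 28 were tested, the dim GSVIVT00005841001 being left out, and between 25 and 29 of the 29 were well above background in both channels of an array. Over all probes, 80.6 to 88.9% were well above background in Cy3 and 83.6 to 90.3% in Cy5. Words for shoot meristem genes matched 0 homolog descriptions. Of green tissue, 2 chlorophyll A-B binding probes were well above background in both channels on all 9 arrays, and 0 of them were called after any treatment.

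**Figure D1:**
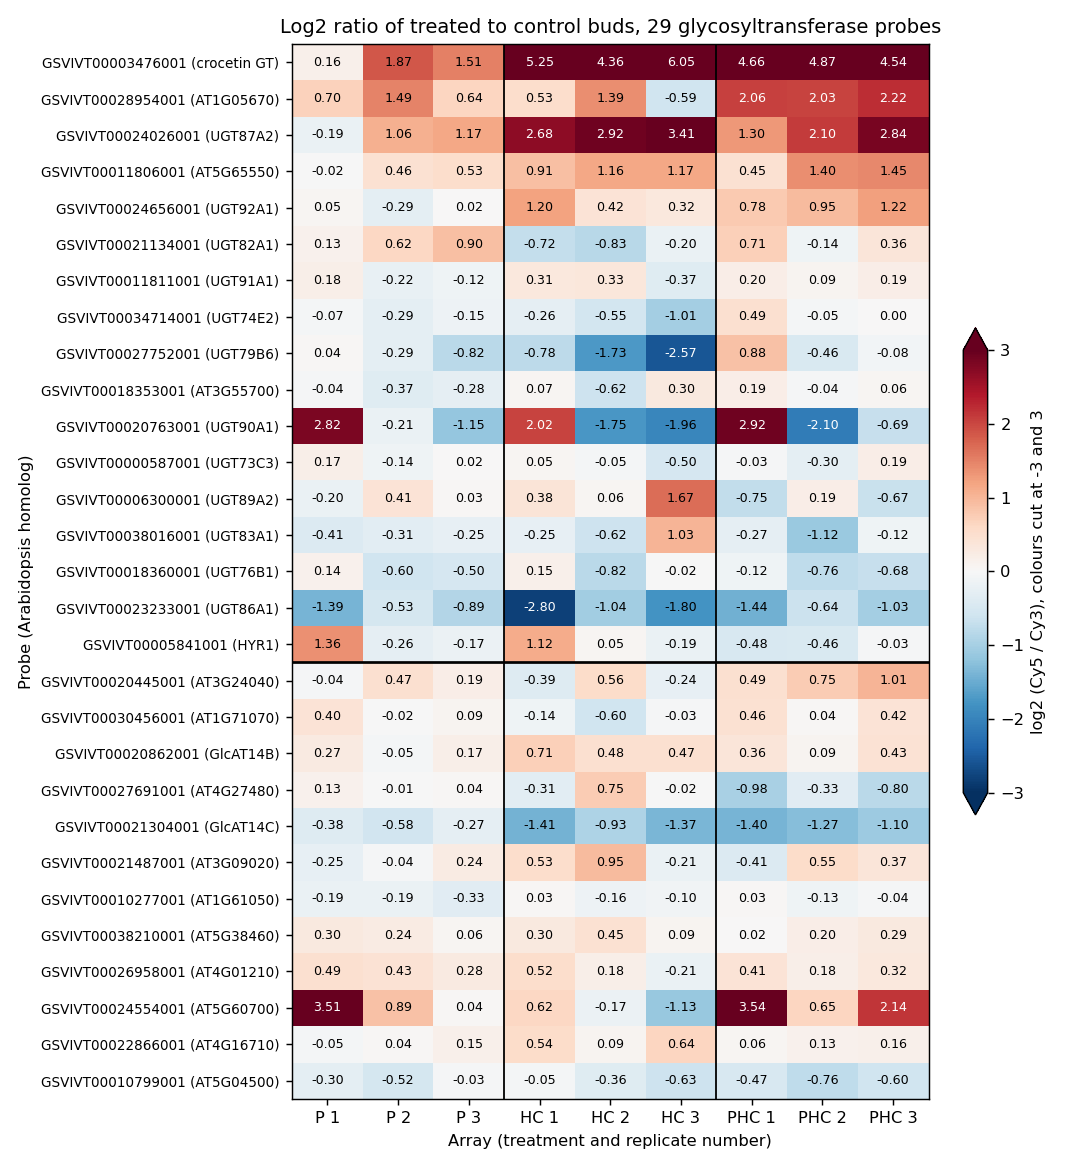
Log2 ratio of treated to control buds for each of the 29 glycosyltransferase probes (rows, with the Arabidopsis homolog in brackets) on each of the 9 arrays (columns). The 17 UGT-type probes stand above the thick line and the 12 of other families below it, and the top row, GSVIVT00003476001, holds 4.36 to 6.05 on the HC and PHC arrays. GSVIVT00020763001 is at 2.02 to 2.92 on the replicate 1 arrays and at -2.10 to -0.21 on the others.

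Most glycosyltransferases stayed within 2-fold of their controls, as did most probes, and a few moved far. After P, 0 of the 28 tested members were called higher and 0 lower (0%), where over all tested probes 2.75% were called higher and 0.572% lower, and 7 of the 28 had an unadjusted limma p under 0.05 against 28.5% of all probes. After HC, 3 were called higher (10.7%) and 3 lower (10.7%), against 5.16% and 4.75% of all probes. After PHC, 5 were called higher (17.9%) and 2 lower (7.14%), against 13.5% and 11.7% of all probes. With so few members these shares rest on 1 or a few genes each. Without the gene added by name, the shares of the 27 remaining were 7.41% higher and 11.1% lower after HC and 14.8% higher and 7.41% lower after PHC. The members had a median log2 change of 0.05 for P, 0.01 for HC and 0.15 for PHC, beside -0.03, -0.03 and -0.07 over all probes. Changes under 2-fold in either direction were held by 26 of the 28 for P, by 22 for HC and by 21 for PHC. Of the 26395 probes tested, 25300, 23502 and 19626 were under 2-fold after P, HC and PHC, so staying close was not particular to the members.

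The split into UGT type and other families was made after the data were seen. The 16 tested UGT-type members held 3 rises (18.8%) and 2 falls (12.5%) after HC, beside 5.16% and 4.75% of all probes. After PHC they held 4 rises (25%) and 1 fall (6.25%), beside 13.5% and 11.7% of all probes. GSVIVT00003476001, the gene added by name, was 1 of the rises after HC and 1 after PHC, so it raises these shares. Among the 12 members of other families there were 0 rises and 1 fall (8.33%) after HC, and 1 rise (8.33%) and 1 fall (8.33%) after PHC. The difference between the types was not tested. How the falls were counted depended on the processing: with background corrected by normexp and loess, 3 members were higher and 1 lower after HC and 5 higher and 0 lower after PHC, and with normexp and median centring 3 and 0 after HC and 6 and 0 after PHC. All 3 genes called higher after HC were called higher in both of these settings. Calls lower also became fewer over all tested probes. They went from 1254 to 466 with loess and 297 with median centring after HC, and from 3083 to 1923 and 747 after PHC.

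The crocetin glucosyltransferase GSVIVT00003476001 had the largest change of any member after HC and after PHC. The saffron enzyme of that name attaches glucose to crocetin, a product of carotenoid cleavage. Its log2 ratios were 0.16, 1.87 and 1.51 on the P arrays, 5.25, 4.36 and 6.05 on the HC arrays and 4.66, 4.87 and 4.54 on the PHC arrays. Every HC and PHC array lay above every P array, and the HC arrays spanned the PHC arrays. The log2 change was 5.22 ± 0.85 (SD, n = 3) after HC, which is 37.3-fold with a limma adjusted p of 2.84e-05, and 4.69 ± 0.17 (SD, n = 3) after PHC, which is 25.9-fold with an adjusted p of 1.42e-05. Both were called in all alternatives run, with log2 changes of 4.53 to 5.65 and of 3.40 to 4.92. After P the log2 change was 1.18 ± 0.90 (SD, n = 3), with a limma adjusted p of 0.0645. That value depended on the processing and on single arrays. After normexp it was 0.63 (adjusted p = 0.0902) if loess followed and 0.32 (adjusted p = 0.257) if median centring did, but passed at 1.80 with all arrays scaled to 1 spread (adjusted p = 0.0106) and at 1.43 with array quality weights (adjusted p = 0.00092). Without P replicate 1, the array at 0.16, it was 1.69 and passed (adjusted p = 0.0377), and without P replicate 2 it was 0.84 (adjusted p = 0.373). The 1.18 also passed without HC replicate 2 (adjusted p = 0.0403) or HC replicate 3 (adjusted p = 0.036).

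The control signal of this gene also differed between treatments. On a normalized log2 scale the treated signal was 7.0, 7.85 and 7.88 on the P arrays, 13.26, 14.39 and 13.22 on the HC arrays and 13.23, 14.55 and 14.02 on the PHC arrays. The control signal was 6.84, 5.98 and 6.37 on the P arrays, 8.01, 10.03 and 7.17 on the HC arrays and 8.57, 9.68 and 9.47 on the PHC arrays. Both channels were thus lowest on the P arrays, although the controls carry 1 label. The control means of the treatments spanned 2.85 on this log2 scale, whereas the median span of the tested members was 0.10, and it was the 1 member of 28 (3.57%) with a span over 1, which 0.693% of all tested probes had. The part of this control signal in the ratios was not tested.

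**Figure D2:**
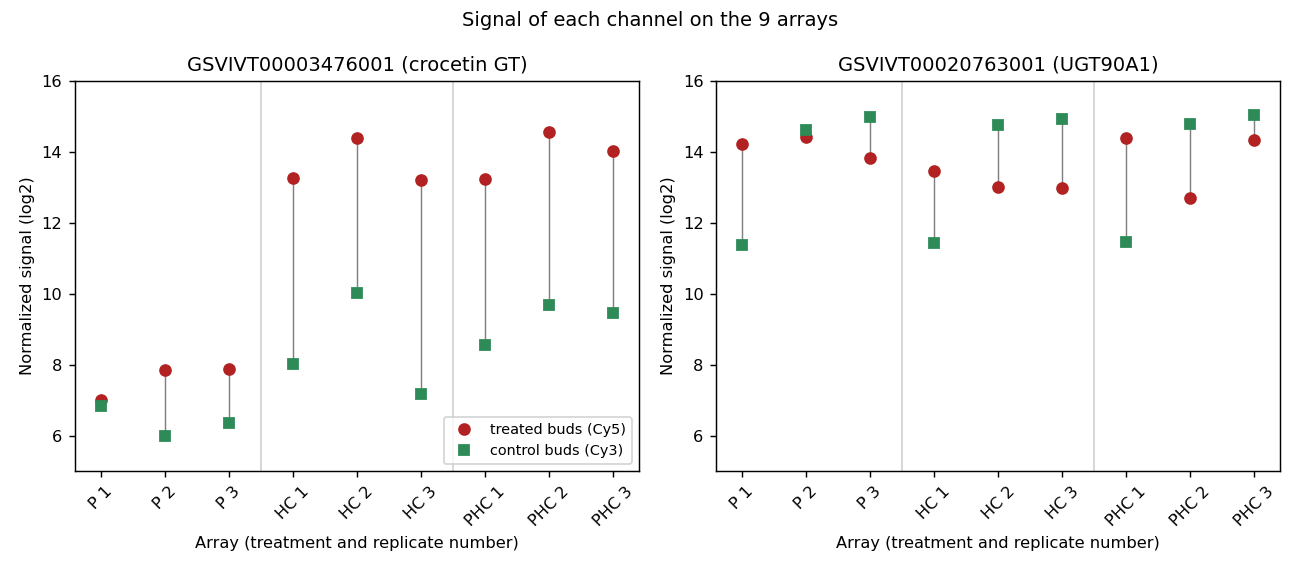
Normalized signal (log2) of treated buds in Cy5 and of control buds in Cy3 on each of the 9 arrays, for GSVIVT00003476001 on the left and GSVIVT00020763001 on the right, with a line joining the channels of an array. On the left both channels are lowest on the P arrays, and on the right the control signal is 11.39 to 11.47 on the replicate 1 arrays and 14.63 to 15.04 on the others, whichever the treatment.

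GSVIVT00024026001 rose with the crocetin glucosyltransferase. Its homolog UGT87A2 (AT2G30140) is known in Arabidopsis for an influence on flowering time. The log2 ratios were -0.19, 1.06 and 1.17 on the P arrays, 2.68, 2.92 and 3.41 on the HC arrays and 1.30, 2.10 and 2.84 on the PHC arrays. All HC and PHC arrays lay above all P arrays, by little for PHC replicate 1, and the HC and PHC arrays overlapped. The log2 change was 3.00 ± 0.37 (SD, n = 3, 8.01-fold, limma adjusted p = 0.000276) after HC and 2.08 ± 0.77 (SD, n = 3, 4.22-fold, adjusted p = 0.000633) after PHC, and both were called in all alternatives run, with log2 changes of 2.24 to 3.16 and of 1.5 to 2.47. After P it was 0.68 ± 0.75 (SD, n = 3, adjusted p = 0.211). The control signal of this gene moved little between treatments, with means of 7.91, 8.04 and 8.03 on the normalized log2 scale.

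A smaller rise after both cyanamide treatments was held by GSVIVT00011806001, a homolog of AT5G65550. Its log2 ratios were -0.02, 0.46 and 0.53 on the P arrays, 0.91, 1.16 and 1.17 on the HC arrays and 0.45, 1.40 and 1.45 on the PHC arrays. The HC arrays lay above the P arrays, whereas PHC replicate 1 lay among them. The log2 change was 1.08 ± 0.15 (SD, n = 3, 2.12-fold, limma adjusted p = 0.00357) after HC and 1.10 ± 0.56 (SD, n = 3, 2.14-fold, adjusted p = 0.00147) after PHC. Both stood just past 2-fold, and the call after PHC was lost without PHC replicate 2 (0.95) or PHC replicate 3 (0.93) and with all arrays scaled to 1 spread (0.80). The call after HC was lost with that scaling (0.99) and with array quality weights (0.93).

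GSVIVT00028954001, a homolog of AT1G05670, rose in PHC. The log2 ratios were 0.70, 1.49 and 0.64 on the P arrays, 0.53, 1.39 and -0.59 on the HC arrays and 2.06, 2.03 and 2.22 on the PHC arrays. The 3 PHC arrays agreed within 0.10 (SD) and lay above all others, and the P and HC arrays overlapped. The log2 change after PHC was 2.11 ± 0.10 (SD, n = 3), 4.31-fold, with a limma adjusted p of 0.000492. It was called in all alternatives run, but after normexp it was far smaller and just past 2-fold, at 1.14 using loess and 1.11 using median centring. After P it was 0.94 ± 0.47 and after HC 0.44 ± 0.99 (SD, n = 3), with adjusted p-values of 0.0884 and 0.316.

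Among the UGT-type members that fell, GSVIVT00023233001 was below its control on all 9 arrays. Its homolog is UGT86A1 (AT2G36970). The log2 ratios were -1.39, -0.53 and -0.89 on the P arrays, -2.80, -1.04 and -1.80 on the HC arrays and -1.44, -0.64 and -1.03 on the PHC arrays. Within each treatment the replicate 1 array was lowest and replicate 2 highest, and the treatments overlapped. The log2 change was -1.88 ± 0.88 (SD, n = 3, limma adjusted p = 0.0019) after HC and -1.04 ± 0.40 (SD, n = 3, adjusted p = 0.0177) after PHC, and it was -0.94 ± 0.43 (SD, n = 3, adjusted p = 0.0823) after P. The call after PHC was lost without PHC replicate 1 (-0.84, adjusted p = 0.107) or PHC replicate 3 (-1.04, adjusted p = 0.0699), with normexp and loess (-0.64), with normexp and median centring (-0.53) and with 1 spread (-0.74). The call after HC was lost with median centring (-0.97).

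GSVIVT00027752001 fell after HC, and its PHC ratios lay higher. Its homolog UGT79B6 (AT5G54010) adds a further glucose to flavonol glucosides in Arabidopsis pollen. The log2 ratios were 0.04, -0.29 and -0.82 on the P arrays, -0.78, -1.73 and -2.57 on the HC arrays and 0.88, -0.46 and -0.08 on the PHC arrays. Every PHC array lay above every HC array, and HC replicate 1 overlapped the P arrays. The log2 change was -1.69 ± 0.90 (SD, n = 3, limma adjusted p = 0.00572) after HC, 0.11 ± 0.69 (SD, n = 3, adjusted p = 0.799) after PHC and -0.36 ± 0.43 (SD, n = 3, adjusted p = 0.542) after P. The fall after HC was under 2-fold with normexp and loess (-0.85), with normexp and median centring (-0.91) and with array quality weights (-0.91), and from the HC arrays alone its adjusted p was 0.051.

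**Figure D3:**
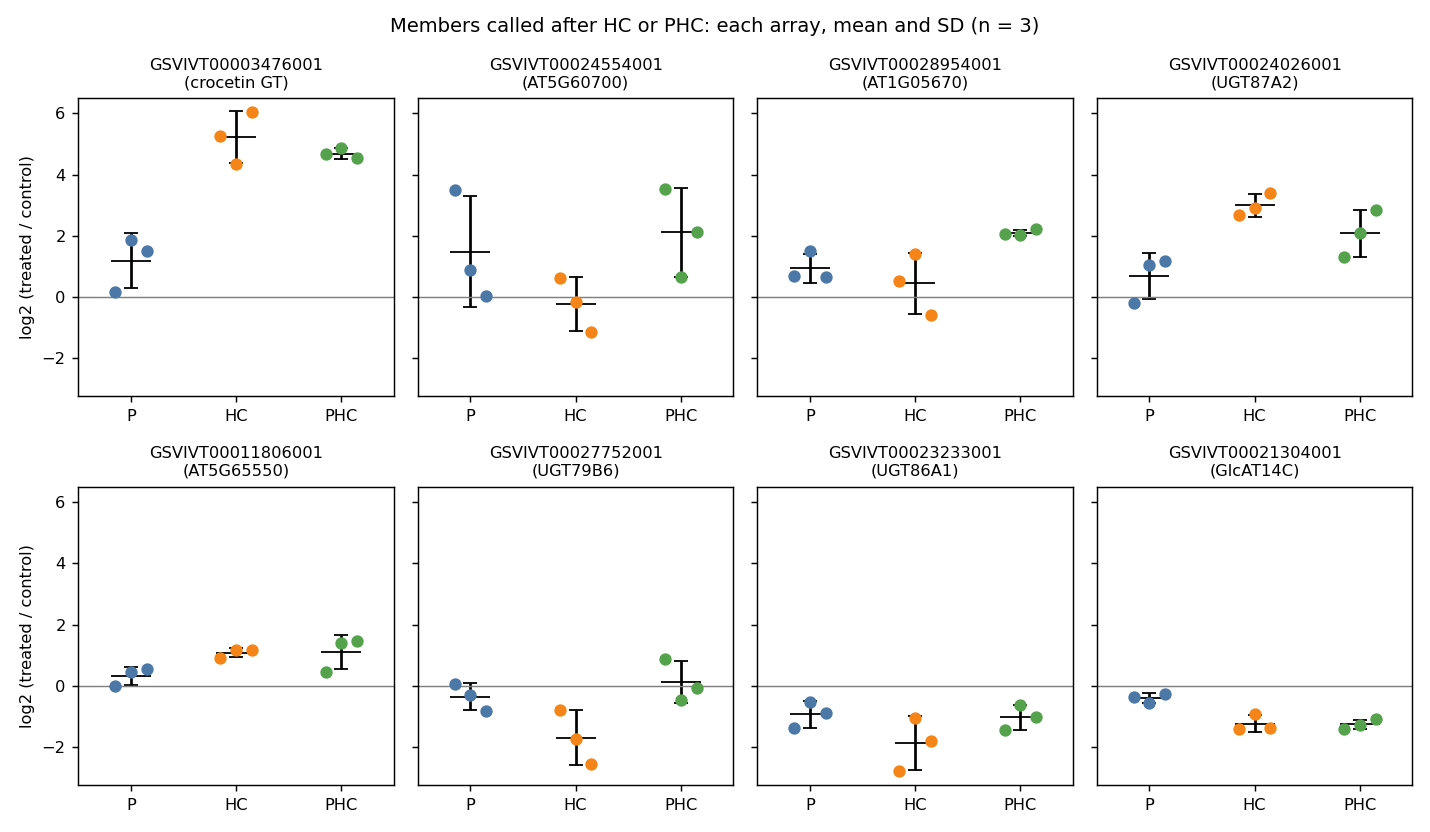
Log2 ratio of treated to control buds on each array (points, replicates 1 to 3 from left to right) with the mean and SD of 3 arrays (black), for the 8 members called after HC or PHC. GSVIVT00003476001 stands at 4.36 to 6.05 on the HC and PHC arrays, and the ratios of GSVIVT00024554001 spread from -1.13 to 3.54.

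Further UGT-type members had log2 changes under 2-fold after each treatment. UGT74E2 of Arabidopsis glucosylates the auxin indole-3-butyric acid, and its homolog GSVIVT00034714001 had log2 ratios of -0.07, -0.29 and -0.15 after P, -0.26, -0.55 and -1.01 after HC and 0.49, -0.05 and 0.00 after PHC. All HC arrays were below the control, with a log2 change of -0.61 ± 0.38 (SD, n = 3, limma adjusted p = 0.0189) that passed the p threshold alone. UGT76B1 glucosylates salicylic acid and isoleucic acid in Arabidopsis, and the log2 changes of its homolog GSVIVT00018360001 were -0.32 ± 0.40, -0.23 ± 0.52 and -0.52 ± 0.35 after P, HC and PHC (SD, n = 3), none with an adjusted p under 0.0754. GSVIVT00024656001, the homolog of UGT92A1, had log2 ratios of 0.05, -0.29 and 0.02 after P, 1.20, 0.42 and 0.32 after HC and 0.78, 0.95 and 1.22 after PHC. Its HC and PHC arrays lay above its P arrays, and its log2 changes of 0.65 ± 0.48 (SD, n = 3, adjusted p = 0.0216) after HC and 0.98 ± 0.22 (SD, n = 3, adjusted p = 0.00139) after PHC fell short of 2-fold. The homologs of UGT91A1 (GSVIVT00011811001) and UGT73C3 (GSVIVT00000587001) and GSVIVT00018353001 had log2 changes between -0.23 and 0.16 after the 3 treatments, with 0 limma adjusted p-values under 0.05. The homologs of UGT89A2 (GSVIVT00006300001) and UGT83A1 (GSVIVT00038016001) had log2 changes between -0.50 and 0.71, and both had their highest ratio on HC replicate 3, at 1.67 and 1.03.

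The UGT90A1 homolog GSVIVT00020763001 was ordered by replicate number and not by treatment. Its log2 ratios were 2.82, -0.21 and -1.15 on the P arrays, 2.02, -1.75 and -1.96 on the HC arrays and 2.92, -2.10 and -0.69 on the PHC arrays. Every replicate 1 array was above its control and every other array below it. The normalized log2 control signal was 11.39, 11.43 and 11.47 on the replicate 1 arrays and 14.63 to 15.04 on the other 6, whereas the treated signal lay between 12.69 and 14.43 over all 9. The means of the 3 replicate numbers thus spanned 3.56 in the control signal, the widest span of any member, beside a median span of 0.48. The log2 changes of 0.49 ± 2.08, -0.56 ± 2.24 and 0.04 ± 2.59 after P, HC and PHC (SD, n = 3) had 95% intervals from -2.03 to 3.01, -3.08 to 1.96 and -2.48 to 2.56, so a change of several fold in either direction was not detectable for this gene. A span over 1 between replicate numbers was also held by the tested members GSVIVT00024554001 (1.39), GSVIVT00027752001 (1.07) and GSVIVT00038016001 (1.02), in all 4 of 28 (14.3%), beside 8.88% of all tested probes. What made the control of replicate 1 differ was not tested.

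Among the families that build glycans, GSVIVT00021304001 of family 14 fell. Its homolog GlcAT14C (AT2G37585) is one of the Arabidopsis glucuronosyltransferases of arabinogalactan proteins. The log2 ratios were -0.38, -0.58 and -0.27 on the P arrays, -1.41, -0.93 and -1.37 on the HC arrays and -1.40, -1.27 and -1.10 on the PHC arrays. All HC and PHC arrays lay below all P arrays, and HC and PHC overlapped. The log2 change was -1.24 ± 0.26 (SD, n = 3, 2.36-fold lower, limma adjusted p = 0.000214) after HC, -1.26 ± 0.15 (SD, n = 3, 2.39-fold lower, adjusted p = 5.6e-05) after PHC and -0.41 ± 0.16 (SD, n = 3, adjusted p = 0.0723) after P. With normexp and loess the changes were -0.91 and -0.98, and with normexp and median centring -0.81 and -0.58, so that the 2-fold limit was missed while the adjusted p stayed under 0.05, and with 1 spread the change after PHC was -0.91.

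The other 4 members of family 14 had log2 changes between -0.70 and 0.75. GSVIVT00020862001, the homolog of the related GlcAT14B, had log2 ratios of 0.71, 0.48 and 0.47 on the HC arrays, a log2 change of 0.55 ± 0.14 (SD, n = 3, limma adjusted p = 0.00657) opposite in sign to that of GSVIVT00021304001. After PHC, GSVIVT00020445001 was at 0.49, 0.75 and 1.01 (log2 change 0.75 ± 0.26, SD, n = 3, adjusted p = 0.00943) and GSVIVT00027691001 at -0.98, -0.33 and -0.80 (-0.70 ± 0.34, SD, n = 3, adjusted p = 0.0146). These 3 passed the p threshold and not the 2-fold limit, so family 14 held small changes in both directions.

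The family 2 member GSVIVT00024554001, a homolog of AT5G60700, rose after PHC with a wide spread. The log2 ratios were 3.51, 0.89 and 0.04 on the P arrays, 0.62, -0.17 and -1.13 on the HC arrays and 3.54, 0.65 and 2.14 on the PHC arrays. The P and PHC arrays overlapped almost fully. Its log2 change after PHC was 2.11 ± 1.45 (SD, n = 3, limma adjusted p = 0.0277), after P 1.48 ± 1.81 (SD, n = 3, adjusted p = 0.197) and after HC -0.23 ± 0.88 (SD, n = 3, adjusted p = 0.824). The call after PHC was lost without PHC replicate 1 (1.39, adjusted p = 0.181) or PHC replicate 3 (2.10, adjusted p = 0.0977) and with 1 spread (1.48, adjusted p = 0.176), and the control was not well above background on HC replicate 1 and PHC replicate 1. After normexp the change after PHC was just past 2-fold, at 1.08 using loess and 1.06 using median centring. The remaining members of the glycan families, among them the ALG6/ALG8 member GSVIVT00038210001 and the family 47 member GSVIVT00010799001, had log2 changes between -0.61 and 0.43 after the 3 treatments. Of these the family 28 member GSVIVT00022866001 after HC (0.43 ± 0.29, SD, n = 3, limma adjusted p = 0.0258) and GSVIVT00010799001 after PHC (-0.61 ± 0.14, SD, n = 3, adjusted p = 0.00558) passed the p threshold alone.

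Differences between treatments were tested in the same fit. They share the arrays of each treatment, and control RNA may be shared too. For HC minus P, 2 members were called higher (7.14%, beside 3.35% of all probes) and 1 lower (3.57%, beside 3.13%). The crocetin glucosyltransferase was higher by 4.04 (95% interval 2.90 to 5.18, limma adjusted p = 0.00194), and GSVIVT00024026001 by 2.32 (1.27 to 3.37, adjusted p = 0.0152), the latter not called with 1 spread (1.68, adjusted p = 0.0746). GSVIVT00021134001, the homolog of UGT82A1, was the 1 lower: its log2 ratios were 0.13, 0.62 and 0.90 on the P arrays and -0.72, -0.83 and -0.20 on the HC arrays, a difference of -1.13 (-1.79 to -0.48, adjusted p = 0.0404). Its P arrays were all above the control and its HC arrays all below, with neither channel well above background on HC replicate 1. This call did not hold without P replicate 2 (-1.10), P replicate 3 (-0.96), HC replicate 1 (-1.06), HC replicate 2 (-1.01) or PHC replicate 3 (-1.13, adjusted p = 0.0682), with no filter on dim probes (adjusted p = 0.0566) or with normexp and loess (-0.30) or median centring (-0.07).

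For PHC minus P, 2 members were called higher (7.14%, beside 4.85% of all probes) and 0 lower (beside 4.82%). These were the crocetin glucosyltransferase, by 3.51 (95% interval 2.37 to 4.65, limma adjusted p = 0.00325), and GSVIVT00024656001, by 1.06 (0.49 to 1.63, adjusted p = 0.0184). With 1 spread the first was 1.60 (adjusted p = 0.234) and the second 0.80 (adjusted p = 0.174). The second was also lost without P replicate 2 (0.95), P replicate 3 (1.10, adjusted p = 0.0576) or PHC replicate 3 (0.94), and under 2-fold with normexp and loess (0.53) or median centring (0.82). The GlcAT14C homolog GSVIVT00021304001 was lower than after P by a similar amount in both cyanamide treatments, with -0.83 (-1.24 to -0.42, adjusted p = 0.0224) for HC and -0.85 (-1.26 to -0.44, adjusted p = 0.0123) for PHC, both under 2-fold.

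For PHC minus HC, the 2 members called were higher (7.14%, beside 8.55% of all probes) and 0 were lower (beside 5.33%). GSVIVT00027752001 was higher by 1.81 (95% interval 0.70 to 2.92, limma adjusted p = 0.0248) and GSVIVT00028954001 by 1.67 (0.65 to 2.68, adjusted p = 0.0243). Both calls were lost without PHC replicate 1 (adjusted p = 0.0805 and 0.0615) or PHC replicate 3 (adjusted p = 0.0643 and 0.0814), the first also without HC replicate 3 (1.37, adjusted p = 0.0601) and the second also without HC replicate 1 (adjusted p = 0.0513) or PHC replicate 2 (adjusted p = 0.0544). With normexp and loess they were 0.95 and 0.88, and with 1 spread 1.57 and 1.02 (adjusted p = 0.0568 and 0.16). The first was 0.96 with array quality weights and the second 0.91 with median centring. Pruning added to cyanamide gave no call for the crocetin glucosyltransferase (-0.53, -1.67 to 0.61, adjusted p = 0.452), for GSVIVT00024026001 (-0.92, -1.97 to 0.12, adjusted p = 0.167) or for GSVIVT00011806001 (0.02, -0.62 to 0.66, adjusted p = 0.965).

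**Figure D4:**
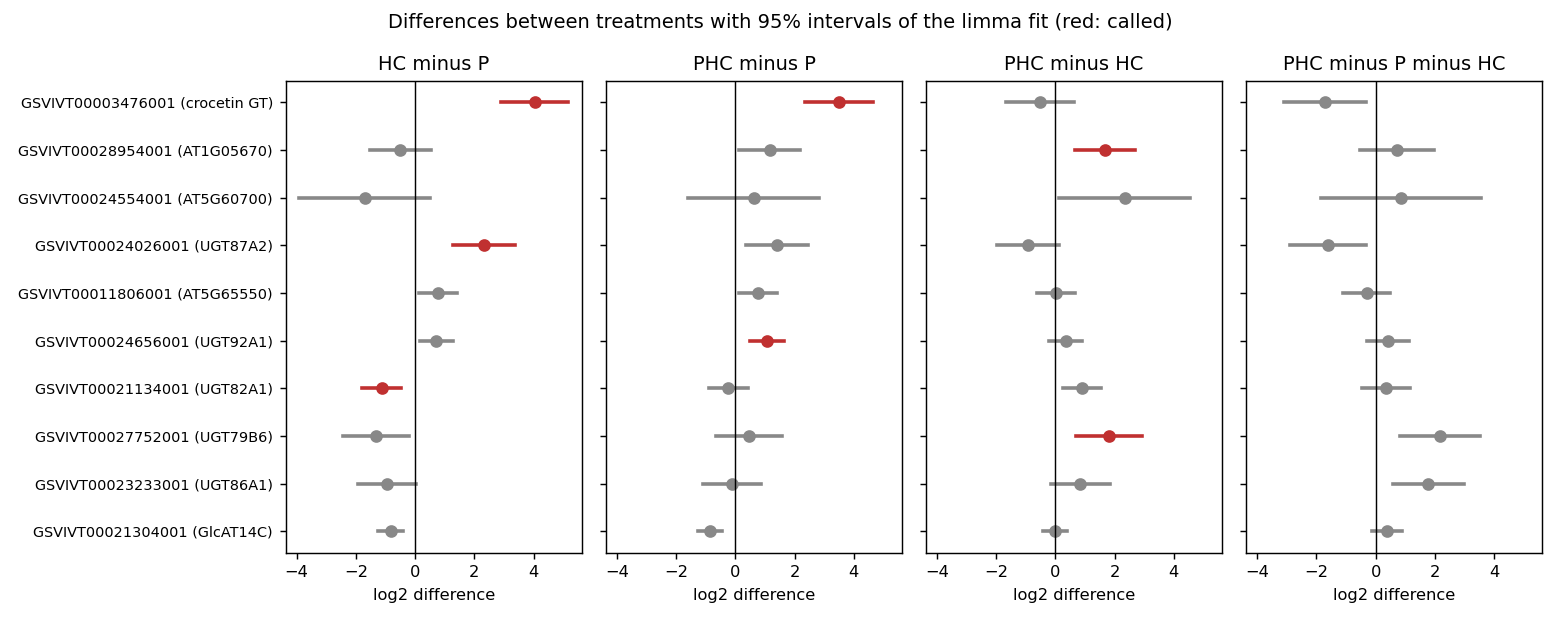
Differences in log2 ratio between treatments (points) with 95% intervals of the limma fit (lines), for the 10 members called after a treatment or in a difference, with calls in red. PHC minus P minus HC is the departure of the combined treatment from the sum of both, in which 0 members are red. Intervals there lie below 0 for GSVIVT00003476001 and GSVIVT00024026001 and above 0 for GSVIVT00027752001 and GSVIVT00023233001.

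When PHC was set against P and HC added together, 0 members departed with a call (0%), where 1.54% of all probes were called above the sum and 1.52% below. An unadjusted limma p under 0.05 was held by 7 of the 28, beside 22.5% of all probes. The crocetin glucosyltransferase and GSVIVT00024026001 were below the sum by values of -1.71 (95% interval -3.11 to -0.31, adjusted p = 0.147) and -1.60 (-2.89 to -0.32, adjusted p = 0.141). Above it stood GSVIVT00027752001 with 2.17 (0.81 to 3.53, adjusted p = 0.0772) and GSVIVT00023233001 with 1.78 (0.58 to 2.98, adjusted p = 0.0936). These 2 UGT-type members were the lowest after HC, but HC is subtracted here, so low HC values themselves raise the departure. In the same way, the 2 members below the sum were the highest after HC (5.22 and 3.00), and high HC values themselves lower the departure. A fit with a block for the replicate number called 3 of these departures, those of GSVIVT00024026001, GSVIVT00027752001 and GSVIVT00023233001.

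Likeness to the crocetin glucosyltransferase was measured as Pearson's r of the log2 ratios over the 9 arrays, a description in which arrays share treatments and controls. Among members, GSVIVT00024026001 came first (r = 0.881), followed by GSVIVT00011806001 (r = 0.781), GSVIVT00024656001 (r = 0.7), GSVIVT00010277001 of the alpha 1,4 family (r = 0.693) and GSVIVT00022866001 of family 28 (r = 0.671). The last 2 moved by at most 0.43 in log2 change, so that a like pattern did not mean a like size. Over all other probes the closest were GSVIVT00036564001 (r = 0.986), GSVIVT00007452001 (r = 0.985), GSVIVT00033500001 (r = 0.984), GSVIVT00036511001 (r = 0.983) and GSVIVT00021914001 (r = 0.982), none with a homolog description. These 5 had log2 changes of 4.43 to 6.22 after HC, 3.33 to 5.41 after PHC and 0.06 to 0.82 after P.

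Genes that supply sugar donors or handle the products of glycosylation were found by words in the homolog description. Of 2 enzymes that make UDP-sugars, GSVIVT00021053001, a UDP-glucose 6-dehydrogenase that makes UDP-glucuronic acid, was called higher after PHC, with log2 ratios of 1.74, 1.39 and 1.66. Its log2 change was 1.60 ± 0.18 (SD, n = 3, limma adjusted p = 3.44e-05), beside 0.74 ± 0.30 (SD, n = 3, adjusted p = 0.0158) after P and 0.43 ± 0.25 (SD, n = 3, adjusted p = 0.051) after HC. Of 17 MATE carriers, which export small molecules and their conjugates into the vacuole or out of the cell, 16 were tested, and 0 were called after P, 3 higher and 2 lower after HC and 2 higher and 1 lower after PHC. GSVIVT00001094001 had log2 ratios of 3.91, 3.25 and 2.93 after HC and 2.88, 1.83 and 2.71 after PHC, with log2 changes of 3.36 ± 0.50 (SD, n = 3, adjusted p = 0.000114) and 2.47 ± 0.56 (SD, n = 3, adjusted p = 0.00016). Like the crocetin glucosyltransferase, it was far lower after P, at 0.52 ± 0.74 (SD, n = 3, adjusted p = 0.305). In each treatment, both of its channels were well above background on only 2 of the 3 arrays.

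Another MATE carrier, GSVIVT00033677001, was called higher after HC (1.61 ± 0.59, SD, n = 3, limma adjusted p = 0.00201) and PHC (1.64 ± 0.67, SD, n = 3, adjusted p = 0.000731), and GSVIVT00011594001 was called lower after PHC (-1.28 ± 0.23, SD, n = 3, adjusted p = 0.000126). Of 4 flavonoid enzymes, whose products are substrates of many glycosyltransferases, 1 was called higher after HC and 1 after PHC. The latter was GSVIVT00029440001, of the chalcone-flavanone isomerase family, with log2 ratios of 0.98, 1.11 and 1.03 after PHC (log2 change 1.04 ± 0.07, SD, n = 3, adjusted p = 0.00168) and of 0.13, -0.77 and -1.01 after HC. Of 2 glutathione S-transferases 0 were called after any treatment, 1 beta-glucosidase was too dim to be tested, and the words for cytochromes P450 and for multidrug ABC transporters matched 0 descriptions. The MATE carriers called higher were 18.8% of those tested after HC and 12.5% after PHC, beside 5.16% and 13.5% of all probes. The MATE carriers called lower were 12.5% after HC and 6.25% after PHC, beside 4.75% and 11.7% of all probes. After P, 0 MATE carriers were called, where 2.75% of all probes were called higher and 0.572% lower. The other lists held at most 4 genes, and no list was tested as a whole.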

How the data were processed

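RNA of grapevine buds 24 h after pruning, hydrogen cyanamide or both was hybridized in Cy5 against RNA of water-treated control buds in Cy3, in 3 arrays per treatment. The authors had extracted the spot intensity of each channel with Agilent Feature Extraction 10.5 (per the labels), subtracted background and applied rank-consistent LOWESS dye normalization, and the deposited log2 ratios and the other columns of flags per spot were used as given. The series table that the authors deposited holds the same log2 values within 0.005. Plain background subtraction widens the ratios of dim probes, and dyes were not exchanged.

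Outlier spots (81 probe values) and 3733 dim probes were left out of the tests. The fit used limma 3.58.1 under R 4.3.3, with jsonlite 2.0.0 and data.table (version 1.17.8) for reading, and estimated 1 mean for each treatment (residual degrees of freedom 6, prior degrees of freedom 2.74). The fit was also run on simulated data. Noise there was independent between arrays, unlike the correlated deviations of arrays with the same replicate number found here. Figures were drawn with matplotlib in Python. Channel levels were the processed signals after A-quantile normalization between arrays. The number of arrays limits the precision.

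The members and lists were chosen with earlier results of these data known. Genes named are the crocetin glucosyltransferase, any member that the study's list of genes common to its treatments names, up to 6 called members with the largest rise and fall per treatment, up to 4 per difference and per departure from the sum, up to 2 per partner list each way after PHC, and the 5 members and 5 other probes most like the crocetin glucosyltransferase. Other members are named to account for all 29, chosen after their values were seen. UGT names of Arabidopsis loci were added from general knowledge. No sequences are shown, as none were used here. Alternatives were normexp (offset 50) with loess or median centring, the series table, scaling to 1 spread, other filters and thresholds, fits on a single treatment, a replicate block, weights for array quality, leaving out each array, and parts of the member list, the split into UGT type and other families being chosen after seeing the data.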

Additional observations from a re-analysis of the deposited data

Results flagged for a closer look

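In 7 results the effects of 2 treatments on a glycosyltransferase differed in a limma test of the difference itself. The crocetin glucosyltransferase GSVIVT00003476001 was higher after HC than after P by 4.04 and after PHC than after P by 3.51 on the log2 scale, with limma adjusted p-values of 0.00194 and 0.00325. GSVIVT00024026001, the UGT87A2 homolog, was higher after HC than after P by 2.32 (adjusted p = 0.0152), and the UGT82A1 homolog GSVIVT00021134001 differed the other way, with -1.13 (adjusted p = 0.0404). The UGT92A1 homolog GSVIVT00024656001 was higher after PHC than after P by 1.06 (adjusted p = 0.0184). After PHC, GSVIVT00027752001 and GSVIVT00028954001 were higher than after HC by 1.81 (adjusted p = 0.0248) and 1.67 (adjusted p = 0.0243).

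In 2 results 1 array stood apart from the other 8 in the control signal of a member. The normalized log2 control signal of GSVIVT00021134001 was 5.08 on PHC replicate 1, its lowest value, and that of GSVIVT00010799001, of family 47, was 5.69 on HC replicate 1, also its lowest. The control signal of 28 members was screened over 9 arrays, and chance alone marks about 1 in 20 such groups. The ratio of GSVIVT00021134001 on PHC replicate 1 was 0.71, and that of GSVIVT00010799001 on HC replicate 1 was -0.05. Neither of these control signals was well above background, nor was the treated signal of GSVIVT00010799001 on that array.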

How the results depend on the processing

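None of 21 results on named members reversed in any alternative run, and the calls of GSVIVT00003476001 and GSVIVT00024026001 after HC and PHC, of GSVIVT00028954001 after PHC and of GSVIVT00003476001 in HC minus P held in all of them. Looser thresholds, fits on a single treatment and the replicate block keep the log2 change, so they could not reverse a result. Looser thresholds also could not lose a call, and the series table holds the same values within 0.005. The counts of called members moved as follows, and a number in brackets is the count over all 26395 tested probes. With the processing described above those were 725 higher and 151 lower after P, 1362 and 1254 after HC, and 3552 and 3083 after PHC. In the alternatives, differences between treatments were not counted over all probes. With normexp and loess, 1 was lower after HC (466), 0 lower after PHC (1923), 1 called in PHC minus P and 0 in PHC minus HC. With normexp and median centring, 0 were lower after HC (297), 0 lower after PHC (747), and 4 called in PHC minus P and 4 in PHC minus HC. The median of all probes then shifted from -0.03 to 0.10 after P and from -0.07 to 0.16 after PHC. The share of higher among all called probes was 82.8, 52.1 and 53.5% after P, HC and PHC, against 95.7, 82.0 and 88.0% with median centring, 86.6, 69.2 and 59.4% with loess and 65.1% after P with 1 spread. Scaled to 1 spread, 2 members were higher (1734) and 1 lower (929) after P, and 3 higher (2077) and 0 lower (1446) after PHC. In that setting 0 were called in PHC minus P, 0 in PHC minus HC and 1 in the departure from the sum. With no fold limit, 6 were higher after HC (3805), 4 lower after PHC (7674) and 4 called in PHC minus HC. With unadjusted p, 1 was higher after P (858), and 4 were called in PHC minus P, 4 in PHC minus HC and 5 in the departure. With array quality weights, 1 was higher after P (863), 6 were called in HC minus P, 4 in PHC minus P, 4 in PHC minus HC and 4 in the departure. The UGT-type members alone had 1 lower after PHC, and the other families 0 higher and 1 lower after HC and 1 higher and 1 lower after PHC. Leaving out 1 array gave 0 to 1 higher and 0 lower after P, 3 to 4 higher and 3 lower after HC, 3 to 5 higher and 1 to 2 lower after PHC, 2 to 3 called in HC minus P, 1 to 4 in PHC minus P, 0 to 5 in PHC minus HC and 0 to 1 in the departure. The count was 0 in PHC minus HC without PHC replicate 1 or 3, and 5 without HC replicate 2. Of 9 same-number pairs, 8 had deviations correlated over 0.1 (0.00285 to 0.628), and all 9 arrays deviated most like one of their own number. The study's methods describe 3 randomized blocks, but the sources used here do not say that a replicate number marks a block. With a replicate block 1 member, GSVIVT00024554001, was higher after P, beside 818 of all tested probes, and 3 were called in the departure. In that fit 4 were called in HC minus P, 3 in PHC minus P and 3 in PHC minus HC. The causes were not tested. Dim signal in Cy3 limits the ratios of low probes.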

Other observations

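One glycosyltransferase, GSVIVT00005841001, was too dim to be tested. Its homolog in Arabidopsis is HYR1, which glucosylates the small molecule hypostatin. Its log2 ratios were 1.36, -0.26 and -0.17 on the P arrays, 1.12, 0.05 and -0.19 on the HC arrays and -0.48, -0.46 and -0.03 on the PHC arrays. On all 3 replicate 1 arrays and on HC replicate 3, neither channel was well above background, and the 2 ratios over 1 came from those arrays.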
